A study of Mus musculus with 28 samples.

Results

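The 5 Notch ligands Dll1, Dll3, Dll4, Jag1 and Jag2, the 4 receptors Notch1, Notch2, Notch3 and Notch4, and Lfng, an enzyme that modifies the receptors, were taken from the deposited matrix by gene symbol. They are 10 of its 19421 genes. All 10 were among the 16837 genes that passed a filter of 10 or more normalized counts in 2 or more libraries. The rule that picks them is by name and uses no threshold on their values.

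RNA-seq had been done on embryoid bodies (EBs) grown from 7 mouse embryonic stem cell (mESC) lines, each able to switch on Atoh1, Gfi1 and Pou4f3, alone or in combination, when doxycycline (Dox) is given. iAtoh1, iGfi1 and iPou4f3 cells carry 1 factor, iG+A, iG+P and iP+A cells carry 2 (G for Gfi1, P for Pou4f3, A for Atoh1), and iGPA cells carry all 3. All lines, treated or not, descend from A2loxCre cells and carry a Venus reporter in the same cassette. Each line has 2 libraries with Dox (2 µg/ml from day 4, 48 h, mVenus+ cells sorted on day 6) and 2 without (whole EBs on day 6, neither treated nor sorted), 28 libraries in 14 groups, and the series record calls the replicates of a line different clones. The effects of Dox, of sorting and of the cells that switched the cassette on cannot be told apart within a line, and EB cells are a mixture grown in culture, not inner ear tissue.

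In Notch signalling, ligands on the surface of 1 cell bind receptors on its neighbour. The bound receptor is cut, and its inner part goes to the nucleus, where it joins Rbpj and turns on target genes of the Hes and Hey families. In the inner ear, new hair cells (HCs) carry ligands such as Dll1 and Jag2 and hold back their neighbours from becoming HCs, and in early embryos Dll1, Dll3 and Lfng also act in the mesoderm that forms somites, while Dll4, Jag1, Notch1 and Notch4 act in blood vessels.

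The promoters of the genes with the largest changes are shown first, because the induced factors bind known short DNA elements. Each sequence runs from 250 bases before the start of transcription to 30 bases from it on, 5′ to 3′ on the strand of the gene, as given by RefSeq for GRCm38.p6. Capitals mark CAGCTG, one form of the E-box that factors of the Atoh1 class bind, AATCAC, the core of the Gfi1 element, and GTGGGAA, the core of the Rbpj element. These were searched on both strands and do not overlap one another here. RefSeq gives Dll1 a pair of start sites, so the 10 genes have 11 windows.
Dll3, chr7:28301756-28302035, minus strand: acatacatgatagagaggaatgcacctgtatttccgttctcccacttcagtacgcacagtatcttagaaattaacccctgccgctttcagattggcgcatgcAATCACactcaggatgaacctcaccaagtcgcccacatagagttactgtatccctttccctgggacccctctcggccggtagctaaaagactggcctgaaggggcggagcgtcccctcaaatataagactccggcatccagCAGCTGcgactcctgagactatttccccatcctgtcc
Dll1 upstream start, chr17:15376903-15377182, minus strand: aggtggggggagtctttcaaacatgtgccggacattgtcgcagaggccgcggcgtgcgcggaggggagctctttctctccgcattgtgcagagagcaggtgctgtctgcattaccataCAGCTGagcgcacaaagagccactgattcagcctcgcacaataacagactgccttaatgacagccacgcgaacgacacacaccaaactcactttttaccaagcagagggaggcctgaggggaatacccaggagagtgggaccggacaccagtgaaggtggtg
Dll1 downstream start, chr17:15375794-15376073, minus strand: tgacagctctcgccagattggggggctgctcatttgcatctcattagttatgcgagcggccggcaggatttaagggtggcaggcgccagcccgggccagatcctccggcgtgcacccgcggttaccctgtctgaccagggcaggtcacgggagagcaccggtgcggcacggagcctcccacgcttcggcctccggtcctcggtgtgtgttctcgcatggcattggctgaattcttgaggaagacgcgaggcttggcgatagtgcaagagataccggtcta
Lfng, chr5:140607091-140607370, plus strand: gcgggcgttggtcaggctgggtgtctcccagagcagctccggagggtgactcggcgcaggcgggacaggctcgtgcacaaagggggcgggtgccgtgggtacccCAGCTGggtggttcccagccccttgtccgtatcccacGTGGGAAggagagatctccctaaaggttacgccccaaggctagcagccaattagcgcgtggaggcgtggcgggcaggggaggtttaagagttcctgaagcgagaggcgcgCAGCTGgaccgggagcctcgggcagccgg
Jag2, chr12:112929466-112929745, minus strand: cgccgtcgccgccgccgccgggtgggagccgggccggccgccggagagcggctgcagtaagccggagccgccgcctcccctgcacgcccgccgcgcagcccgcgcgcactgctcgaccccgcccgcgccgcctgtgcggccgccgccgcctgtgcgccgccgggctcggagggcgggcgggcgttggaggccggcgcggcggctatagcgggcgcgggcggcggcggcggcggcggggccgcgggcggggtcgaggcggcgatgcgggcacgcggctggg

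CAGCTG was found in 4 of the 11 windows, against 14.9% of all 32851 RefSeq windows of this length. The 4 genes were Dll1 (1 match, 132 bases before its upstream start), Dll3 (7 bases before), Jag1 (82 bases before) and Lfng (146 bases before, and again 2 bases into the transcript). AATCAC was found in the window of Dll3 alone among the 10 genes (148 bases before the start), and in 9.9% of all windows. GTGGGAA was found in that of Lfng alone (109 bases before), and in 5.9% of all windows. The windows of Jag2 and Dll4 held none of the 3. A match is a description of letters and was not tested as a binding site.

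Values are normalized counts, recovered from the deposited log2(normalized count + 1). A Dox effect is a log2 fold change on that scale, which understates the change of genes with low counts. It is given with its standard error (SE) and the p-value from limma, adjusted by the Benjamini-Hochberg method over 16837 genes. A gene is said to rise or fall if the adjusted p was below 0.05 and the log2 fold change was at least 1.5 in size. Normalized counts summed to 36.8 to 40.4 M per library and 17628 to 18074 genes were above 0. Atoh1 had 12820 to 21240 normalized counts in the 8 Dox libraries of lines that carry it and 14.3 to 32.5 in the other 6. Gfi1 had 8119 to 12490 against 49.7 to 113, and Pou4f3 4694 to 19880 against 27.7 to 101, so the Dox libraries match their labels. In untreated libraries Gfi1 was at 57.9 to 119 in lines with its cassette and at 27.3 to 68.6 in the others. Pou4f3 was at 2.22 to 72.6 and 2.25 to 20.5, and both pairs of ranges overlapped. Reads of the cassette and of the cell's own copy are counted together here. Before Dox, Atoh1 was already at 29.6 to 120 in lines that carry its cassette and at 3.02 to 13.3 in the others. In lines without that cassette, Atoh1 itself rose with Dox in iGfi1 (2.04, limma adjusted p = 0.00025) and iG+P cells (2.70, limma adjusted p = 4.88e-06), where Dll1, Dll3 and Lfng also rose, and changed by 0.78 in iPou4f3 cells (limma adjusted p = 0.217). Pou4f3 likewise rose without its cassette in iAtoh1 (2.21) and iG+A cells (3.11), and Gfi1 in iPou4f3 (1.55) and iP+A cells (1.64). Lines with and without a factor are named here by their cassettes.

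In untreated EBs the receptors were the more abundant class. Per kilobase of the longest annotated mRNA, the median over 14 untreated libraries was 666 for Notch3 (408 to 909), 346 for Notch2 (297 to 493) and 194 for Notch1 (127 to 321). Jag2 followed with 117 (77.6 to 171) and Jag1 with 82.4 (38.0 to 131). Lfng had 51.0 (29.7 to 79.8), Notch4 49.4 (24.4 to 69.9) and Dll3 38.7 (15.0 to 120.2), and Dll4 (23.6, from 12.6 to 39.0) and Dll1 (23.3, from 4.66 to 52.1) were lowest. The range of each gene overlapped that of the next in this order. Untreated lines with the Atoh1 cassette did not differ past the threshold from untreated lines without it in any of the 10 genes (0 of 10 either way, background 0.0356% upward and 0.0119% downward), and 1 gene, Notch2, had an unadjusted p under 0.05 in limma (−0.20, SE 0.07).

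**Figure D1:**
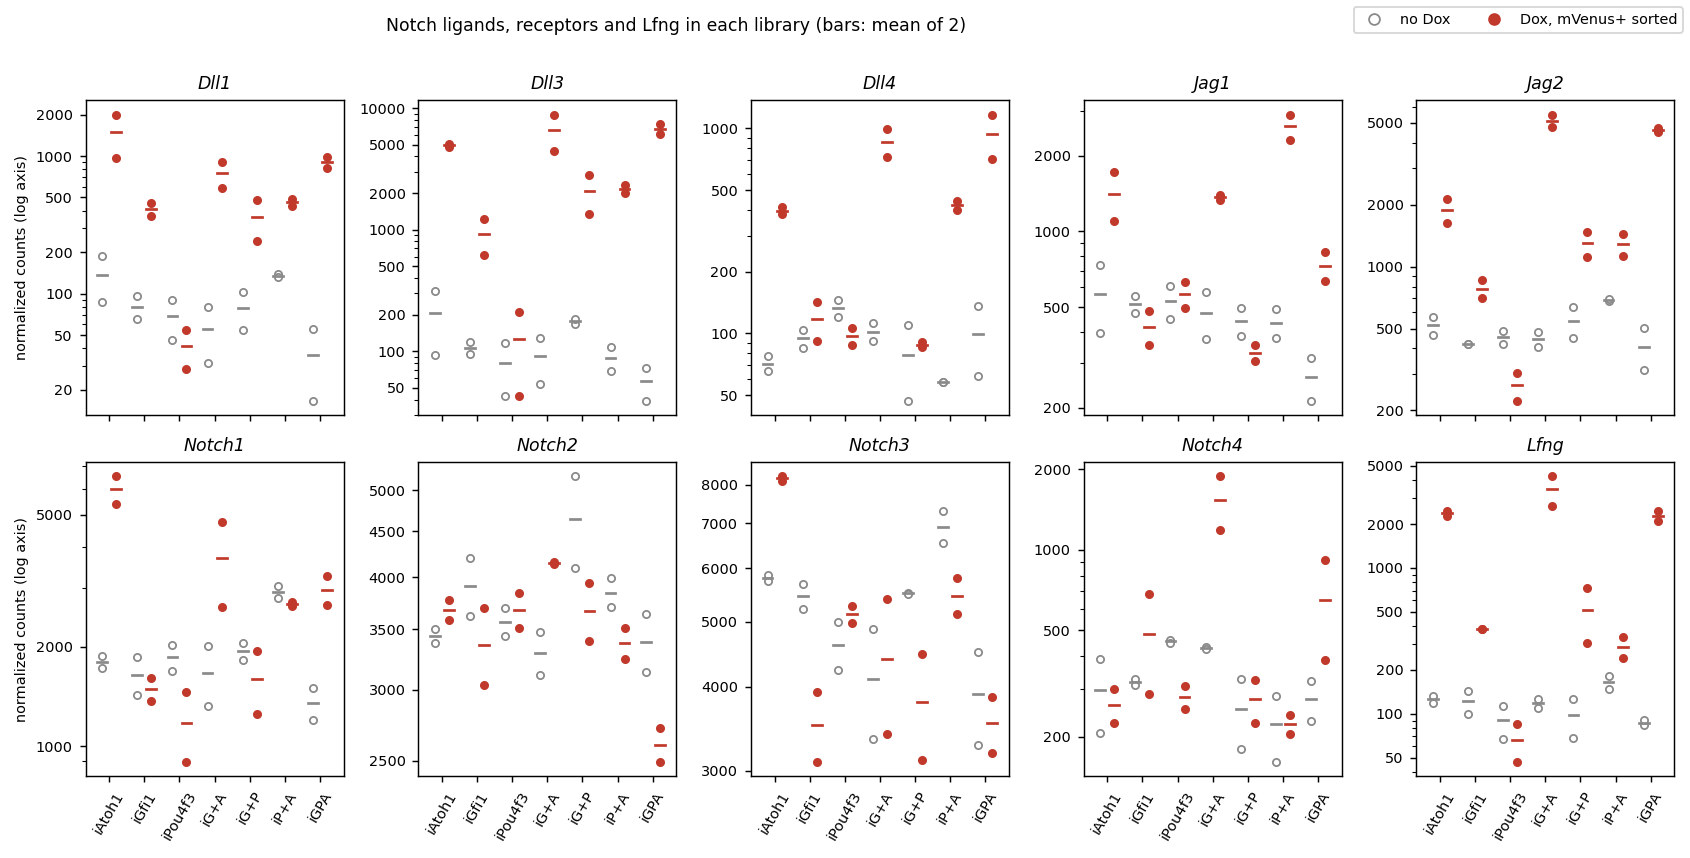
Normalized counts (log axis) of the 10 genes in all 28 libraries by line, open grey for no Dox and red for Dox, with bars at the mean of 2. Dll3 reached 4418 to 8832 in the Dox libraries of iAtoh1, iG+A and iGPA cells, while Notch2 stayed between 2492 and 5182 in every library.

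With Dox, 7 of the 10 genes rose in iG+A cells, where 7.35% of all genes tested rose and 4.95% fell. In iAtoh1 cells 6 of the 10 rose (of all genes 2.89% rose and 2.52% fell), in iGPA cells 5 (8.65% and 5.31%) and in iP+A cells 4 (4.7% and 2.58%). In iGfi1 cells 3 rose (2.15% and 2.67%), and in iG+P cells 3 (5.16% and 5.36%). In iPou4f3 cells 0 of the 10 passed the threshold of limma in either direction (1.47% and 0.606%), with 2 at an unadjusted p under 0.05. No member fell in any line. The median log2 fold change of the 10 was 2.43 for iG+A, 2.39 for iGPA, 1.79 for iAtoh1, 0.84 for iP+A, 0.38 for iGfi1, 0.23 for iG+P and −0.46 for iPou4f3 cells, while that of all genes lay between −0.03 and 0.022. The 2 Dox and the 2 untreated libraries did not overlap for 9 of the 10 genes in iAtoh1 (60.1% of all genes), iG+A (64.8%), iP+A (65.0%) and iGPA cells (74.1%). They did not for 7 of the 10 in iG+P cells (68.4% of all genes), 5 in iGfi1 (67.1%) and 4 in iPou4f3 cells (51.6%), so in these 3 lines the count was near or below that of all genes. In bulk samples, fewer cells of a type and less RNA per cell cannot be told apart, and this holds for every value here.

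**Figure D2:**
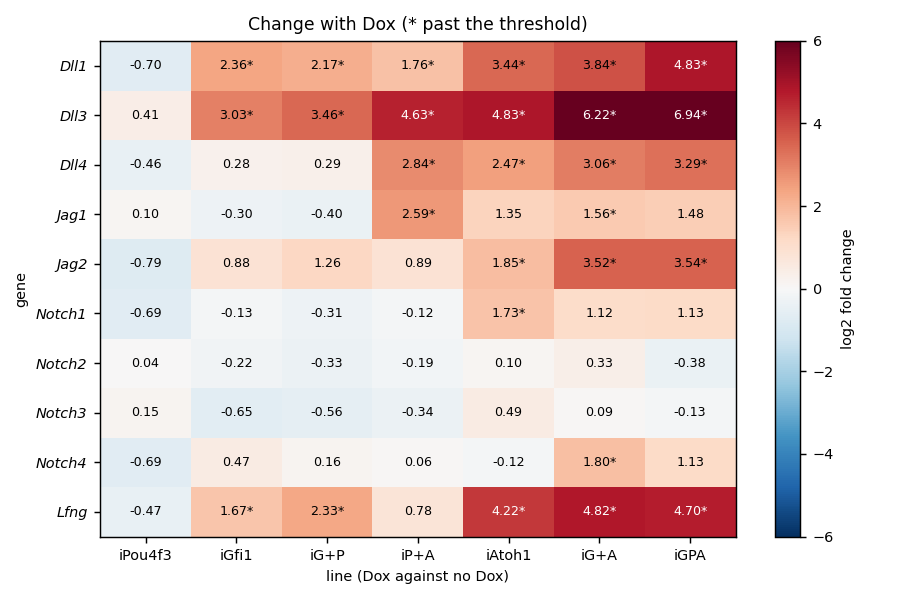
Log2 fold change with Dox for the 10 genes (vertical) in the 7 lines (horizontal), with an asterisk where the threshold was passed. The ligands and Lfng carry most asterisks, Notch2 and Notch3 none, and the largest value is 6.94 for Dll3 in iGPA cells.

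Of the 10 genes, Dll3 had the largest change in iGPA, iG+A, iAtoh1, iP+A, iG+P and iGfi1 cells. Dll3 (Entrez 13389, NCBIM37 chromosome 7, 29076673 to 29087257, minus strand, 9 exons) is an unusual member of the family that is mostly held inside the cell and is not known to activate receptors on neighbours. It rose in 6 of the 7 lines. In iGPA cells it went from 73.4 and 39.3 normalized counts without Dox to 7423 and 6117 with Dox, a log2 fold change of 6.94 (SE 0.68, limma adjusted p = 1.87e-07), which is 123-fold. iG+A cells went from 53.4 and 129 to 4418 and 8832 (6.22, SE 0.68, limma adjusted p = 1.13e-06). In iAtoh1 cells it went from 315 and 93.8 to 5096 and 4778 (4.83, SE 0.68, limma adjusted p = 5.78e-05). These 6 Dox libraries ran from 4418 to 8832, while the highest untreated library of any line had 315. iP+A cells went from 68.2 and 108.5 to 2333 and 1983 (4.63, limma adjusted p = 6.15e-05) and iG+P cells from 168 and 185.5 to 2825 and 1348 (3.46, limma adjusted p = 0.000595). iGfi1 cells went from 120.0 and 94.1 to 1233 and 621 (3.03, limma adjusted p = 0.00307). Without Dox replicate 1 the last of these missed the threshold (2.54, limma adjusted p = 0.0565). In iPou4f3 cells the values were 42.9 and 117 without Dox and 42.7 and 209 with Dox, and the groups overlapped.

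Dll1 (Entrez 13388, chromosome 17, 15504318 to 15513836, minus strand, 11 exons), a ligand that HCs and somite-forming mesoderm use, rose in the same 6 lines at lower counts. In iGPA cells its 55.1 and 16.7 normalized counts became 819.7 and 979.8 (4.83, SE 0.57, limma adjusted p = 1.83e-06), and in iG+A cells 31.3 and 79.6 became 586 and 910.2 (3.84, limma adjusted p = 3.56e-05). In iAtoh1 cells it went from 187 and 87.3 to 2004 and 969.6 (3.44, limma adjusted p = 0.000294). The untreated and Dox libraries were well apart in these 3 lines. The other 3 rises were smaller and were lost when single libraries were left out. In iGfi1 cells 96.0 and 65.0 became 368 and 459 (2.36, limma adjusted p = 0.00514), and without untreated replicate 2 the adjusted p was 0.0592. In iG+P cells 54.2 and 103 became 476 and 242 (2.17, limma adjusted p = 0.0062), and without untreated replicate 1 or Dox replicate 1 the limma adjusted p was 0.0865 or 0.0842. In iP+A cells 138 and 131.5 became 487 and 432.5 (1.76, limma adjusted p = 0.0301), a call that ended when any 1 of the 4 libraries was left out, at limma adjusted p of 0.0869 to 0.141. In iPou4f3 cells Dll1 was at 46.3 and 90.4 without and 28.5 and 54.8 with Dox, and these ranges overlapped.

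Dll4 (Entrez 54485, chromosome 2, 119151520 to 119161698, plus strand, 11 exons), the main Delta-like ligand of blood vessels, rose in the 4 lines that carry Atoh1 and in none of the other 3. Its 77.2 and 65.2 normalized counts in iAtoh1 cells became 414 and 380.3 with Dox (2.47, SE 0.36, limma adjusted p = 9.72e-05). In iP+A cells 58.0 and 57.9 became 399 and 442 (2.84, limma adjusted p = 1.41e-05). In iG+A cells 91.7 and 112 became 728 and 997 (3.06, limma adjusted p = 3.14e-06). The untreated and Dox libraries lay far apart in each of these lines. In iGPA cells 62.0 and 137 became 711 and 1167 (3.29, limma adjusted p = 8.62e-07). In the lines without the Atoh1 cassette the values were 104.0 and 85.0 against 142 and 91.7 in iGfi1 (0.28), 121 and 146 against 106 and 88.1 in iPou4f3 (−0.46) and 47.0 and 109 against 85.4 and 91.0 in iG+P cells (0.29).

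Of the Jagged ligands, Jag2 (Entrez 16450, chromosome 12, 114146801 to 114167706, minus strand, 26 exons), which nascent HCs express, rose in 3 lines. The 408 and 483 normalized counts of untreated iG+A cells became 4774 and 5484 (3.52, SE 0.23, limma adjusted p = 1.95e-09). In iGPA cells 501 and 314.5 became 4706 and 4516 (3.54, limma adjusted p = 9.56e-10). In iAtoh1 cells it went from 572 and 467 to 2143 and 1631 (1.85, limma adjusted p = 1.32e-05). Every Dox library with Gfi1 and Atoh1 together thus lay above both Dox libraries with Atoh1 alone. In the other lines its change stayed below the fold threshold, at 1.26 in iG+P (limma adjusted p = 0.000258), 0.89 in iP+A (0.00727) and 0.88 in iGfi1 cells (0.00749), and in each of these the Dox libraries were above the untreated ones. In iPou4f3 cells both Dox libraries (223 and 305) were below both untreated libraries (421 and 485.5), with a change of −0.79 that missed the threshold (limma adjusted p = 0.0523).

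Jag1 (Entrez 16449, chromosome 2, 136907192 to 136942380, minus strand, 26 exons), which marks the patch of ear tissue that will form sensory cells and also vessels, followed another order. It rose most in iP+A cells, from 378 and 491 to 2913 and 2317 normalized counts (2.59, SE 0.30, limma adjusted p = 4.21e-06). In iG+A cells it went from 374 and 575 to 1339 and 1402 (1.56, limma adjusted p = 0.000439), which was not past the threshold without untreated replicate 1 (1.25) or with quantile normalization (1.47). Below the fold threshold were iGPA cells, with 315 and 213 against 637 and 826 (1.48, limma adjusted p = 0.000533), and iAtoh1 cells, with 737 and 395 against 1725 and 1105 (1.35, limma adjusted p = 0.00323). In these 4 lines with Atoh1 the Dox libraries were all above the untreated ones. In iGfi1, iPou4f3 and iG+P cells the changes were −0.30, 0.10 and −0.40.

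Of the receptors, Notch1 and Notch4 each rose in 1 line and Notch2 and Notch3 in none. Notch1 (Entrez 18128, chromosome 2, 26313423 to 26372183, minus strand, 34 exons), the receptor with the widest roles in ear and vessels, rose in iAtoh1 cells, from 1721 and 1871 normalized counts to 6542 and 5390 (1.73, SE 0.27, limma adjusted p = 0.00018). In iG+A cells it had 1322 and 2008 without and 2636 and 4744 with Dox (1.12), and in iGPA cells 1499 and 1204 against 2666 and 3259 (1.13), both below the fold threshold with limma adjusted p of 0.00304 and 0.00225. Without Dox replicate 1 the iG+A value passed (1.54). In iP+A cells, which also carry Atoh1, it was at 2794 and 3048 without and 2729 and 2650 with Dox (−0.12). In iPou4f3 cells the Dox libraries (895.5 and 1455) lay below the untreated ones (1688 and 2021), a change of −0.69 that missed the threshold (limma adjusted p = 0.17).

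Notch4 (Entrez 18132, chromosome 17, 34701213 to 34725448, plus strand, 30 exons), a receptor found mostly in endothelium, rose in iG+A cells, from 433 and 425 to 1187 and 1883 normalized counts (1.80, SE 0.44, limma adjusted p = 0.00305). Without Dox replicate 2 of that line the value was 1.47, below the fold threshold. In iGPA cells it had 228 and 323 without and 386 and 914 with Dox (1.13, limma adjusted p = 0.0423), which passed without Dox replicate 1 (1.75), and its changes in the other 5 lines were −0.69 to 0.47. The summed normalized counts of 12 endothelial markers went from 28530 and 29480 to 41580 and 48380 in iG+A cells. They went from 22900 and 24820 to 25560 and 42060 in iGPA cells. Single markers in iG+A cells changed by −1.31 (Pecam1) to 1.45 (Eng), with Erg, Emcn, Tek and Cldn5 also negative. In iG+A cells 0 of these 12 markers passed the threshold (median change 0.67), and in iGPA cells Cldn5 rose and Pecam1 fell (median 0.73). In iAtoh1, iG+P and iP+A cells 2, 3 and 1 of the 12 fell, and in iGfi1 and iPou4f3 cells 0 did. Over all lines the sum was 20360 to 29720 in untreated and 11650 to 48380 in Dox libraries, and none of the 12 was at 0 in any library. The part of endothelial cells in the Notch4 and Dll4 values was not tested.

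Notch2 (Entrez 18129, chromosome 3, 97817461 to 97954290, plus strand, 34 exons) and Notch3 (Entrez 18131, chromosome 17, 32257765 to 32303825, minus strand, 33 exons), a receptor of mural cells and progenitors, passed the threshold in 0 of 7 lines. Notch2 changed by −0.38 to 0.33, with a lowest adjusted p of 0.0151 by limma (iGPA, 3640 and 3139 against 2718 and 2492). Notch3 changed by −0.65 to 0.49. It was lowest against its control in iGfi1 cells, with 5223 and 5689 untreated and 3088 and 3927 with Dox (limma adjusted p = 0.0313), and highest in iAtoh1 cells, with 5866 and 5738 against 8107 and 8234 (limma adjusted p = 0.102).

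Lfng (Entrez 16848, chromosome 5, 141083295 to 141091497, plus strand, 8 exons) adds a sugar to Notch receptors and so changes which ligands they respond to. It rose in 5 lines. The 109 and 127 normalized counts of untreated iG+A cells became 2653 and 4259 (4.82, SE 0.38, limma adjusted p = 2.41e-08). In iGPA cells 83.3 and 90.1 became 2107 and 2443 (4.70, limma adjusted p = 1.83e-08), and in iAtoh1 cells 133 and 119.6 became 2283 and 2450 (4.22, limma adjusted p = 4.57e-07). These 6 Dox libraries stood at 2107 to 4259, and the next highest library had 731. Its 68.4 and 127 in iG+P cells became 731 and 305.5 (2.33, limma adjusted p = 9.79e-05). The rise in iGfi1 cells, with 144.5 and 99.0 untreated and 380.1 and 384 with Dox (1.67, limma adjusted p = 0.00344), was a call lost without untreated replicate 2 (1.40, limma adjusted p = 0.0541). In iP+A cells, with 182 and 149 untreated and 334 and 241 with Dox (0.78, limma adjusted p = 0.143), and in iPou4f3 cells, with 113 and 67.7 against 46.7 and 85.0 (−0.47), it did not pass.

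Markers of somite-forming and early mesoderm, where Dll1, Dll3 and Lfng also act, were set beside these values. These 3 genes all rose in iAtoh1, iGfi1, iG+A, iG+P and iGPA cells. Of the 9 mesoderm markers, 0 passed the threshold in iAtoh1 cells and 0 in iPou4f3 cells. In iGfi1 cells 2 rose, in iG+A 2, in iG+P 4 with 1 fall, in iP+A 1, and in iGPA cells 5 with 1 fall. Their summed normalized counts were 949 to 3090 in untreated and 733 to 3129 in Dox libraries. Cdx2 had the highest median of the 9, at 1127 untreated and 463 with Dox, and so weighs most in that sum. The median log2 fold change of the 9 markers was 3.02 in iGPA, 2.24 in iG+P, 1.98 in iGfi1 and 1.52 in iG+A cells. It was 0.16 in iPou4f3, −0.15 in iAtoh1 and −0.49 in iP+A cells. Msgn1 was listed at 0 in 7 untreated libraries and 1 Dox library, and Ripply2 in 5 and 1. Mesenchyme markers (9 genes, among them Col1a1, Pdgfra and Postn) rose in no line and fell in 6, by 8 genes in iGPA, 5 in iG+A, 5 in iG+P, 3 in iAtoh1, 2 in iGfi1 and 1 in iP+A cells. Their sum was 53770 to 170800 in untreated and 9095 to 127200 in Dox libraries, ranges that overlap over all lines. Within each line but iPou4f3, both Dox sums were below both untreated sums. iGPA cells, for example, went from 76700 and 123200 to 9095 and 12040.

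Of 6 neuron markers 6 rose in iP+A, 5 in iGPA, 3 in iAtoh1, 3 in iG+A, 2 in iG+P, 2 in iPou4f3 and 0 in iGfi1 cells, with sums of 355 to 1193 untreated and 703 to 22320 with Dox. Of 6 HC markers 4 rose in iGPA, 3 in iG+A, 2 in iP+A, 2 in iG+P, 1 in iPou4f3 and 0 in iAtoh1 and iGfi1 cells. Lhx3 was at 0 in 4 untreated libraries and 1 Dox library, and the HC sums, 14670 to 72450 untreated and 22250 to 77060 with Dox, overlapped. Most of that sum was Cdh23, with a median of 30800 untreated and 31670 with Dox. The medians were 1891 and 1993 for Myo7a, 2210 and 4546 for Myo6, 391 and 912 for Espn and 7.40 and 170.1 for Otof. Of 6 neural progenitor markers 2 rose in iG+A cells, 1 each in iAtoh1, iP+A and iGPA and 0 in the rest, and Sox2 fell in iG+A and iP+A cells (sums 899.6 to 5541 and 836 to 3949). Of 4 pluripotency markers 2 fell in iG+A, 3 in iP+A and 2 in iGPA cells and 0 elsewhere (sums 564 to 11370 and 472 to 2842). iP+A cells, with all 6 neuron markers up, had Dll1, Dll3, Dll4 and Jag1 past the threshold and the rest of the 10 genes below it. iGPA cells, with 5 of the 6 up, had Dll1, Dll3, Dll4, Jag2 and Lfng past it. The part of cell composition in the values of the 10 genes was not tested.

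Which factors the changes went with was asked by testing differences of Dox effects. Averaged over lines, the Dox effect was larger with Atoh1 (4 lines) than without (3 lines) in all 5 ligands and Lfng, 6 of the 10 genes (background 2.99% upward, 1.59% downward). The differences were 3.35 for Dll3 (SE 0.52, limma adjusted p = 7.75e-05), 2.88 for Dll4 (5.47e-07), 2.45 for Lfng (5.05e-06), 2.19 for Dll1 (0.000803), 2.00 for Jag2 (1.37e-07) and 1.95 for Jag1 (4.75e-06). Notch1 differed by 1.34 (limma adjusted p = 7.77e-05), under the fold threshold. The other 3 receptors differed by 0.14 to 0.74 and missed it too. The line sets are not balanced for the other factors, since Gfi1 is in 2 of the 4 lines with Atoh1 and in 2 of the 3 without.

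With Gfi1 (4 lines) against without (3 lines), 4 genes had a larger Dox effect (background 3.88% upward, 2.96% downward). They were Lfng with 1.87 (limma adjusted p = 6.26e-05), Dll1 with 1.80 (0.00328), Jag2 with 1.65 (8.52e-07) and Dll3 with 1.62 (0.0196). The Dll3 call was lost without any 1 of 7 libraries, with 1.24 as its smallest value (without Dox replicate 1 of iPou4f3). Dll4 differed by 0.11 (SE 0.28) and Jag1 by −0.76 (SE 0.23). With Pou4f3 against without, Lfng alone differed past the threshold, by −1.74 (SE 0.29, limma adjusted p = 0.000557, background 1.81% upward, 0.529% downward). The other 9 genes differed by −1.20 to 0.07. The line sets of this comparison are not balanced either, since iPou4f3 cells carry neither Atoh1 nor Gfi1. Lines that differ by Pou4f3 only did not share this Lfng difference. It was −3.44 for iP+A minus iAtoh1 and −0.13 for iGPA minus iG+A cells. The Dox effect on Lfng was 2.33 in iG+P and 1.67 in iGfi1 cells, and their difference was not tested.

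**Figure D3:**
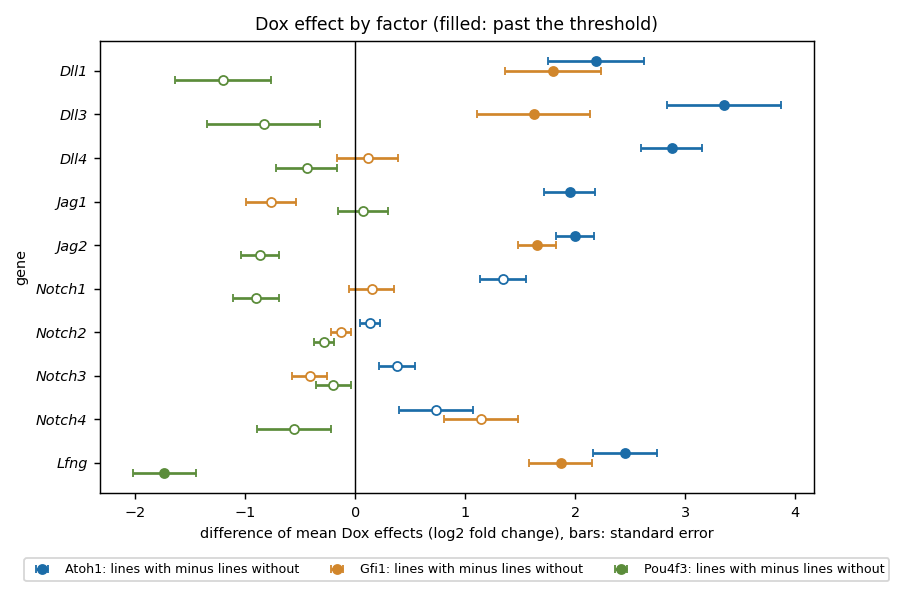
Difference of the mean log2 Dox effect between lines with and without each factor, for the 10 genes, with bars of 1 SE and filled points past the threshold. Blue points (Atoh1) are filled for the 5 ligands and Lfng, orange (Gfi1) for Dll1, Dll3, Jag2 and Lfng, and green (Pou4f3) for Lfng only, at −1.74. The line sets are not balanced for the other factors.

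Adding 1 factor to a line gave 5 further comparisons, which share libraries with each other. When Gfi1 was added to Atoh1 (iG+A minus iAtoh1), the Dox effects of Jag2 and Notch4 were larger, by 1.67 (SE 0.32, limma adjusted p = 0.00147) and 1.92 (SE 0.62, limma adjusted p = 0.042; background 4.44% upward, 2.44% downward). The Jag2 call was lost without Dox replicate 2 of iAtoh1 (1.47). That of Notch4 was lost in a fit of only the groups compared (limma adjusted p = 0.0527) and without any 1 of 6 of the 8 libraries, with 1.46 as its smallest value (without untreated replicate 1 of iAtoh1).

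When Pou4f3 was added to Atoh1 (iP+A minus iAtoh1), 2 genes had a smaller effect and 0 a larger one (background 0.689% downward, 2.09% upward). Lfng was lower by a log2 difference of −3.44 (SE 0.54, limma adjusted p = 0.000581) and Notch1 by −1.84 (SE 0.38, limma adjusted p = 0.00647). Jag1 went the other way, by 1.23, and missed the threshold (limma adjusted p = 0.107). Without untreated replicate 2 of iAtoh1 it passed (1.68). Dll3 differed by −0.21 (SE 0.96) and Dll4 by 0.37 (SE 0.52), intervals too wide to show that these effects are alike.

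When Gfi1 was added to Pou4f3 and Atoh1 (iGPA minus iP+A), 3 genes had a larger effect (background 4.76% upward, 2.84% downward). Lfng differed by 3.91 (SE 0.54, limma adjusted p = 7.28e-05), Dll1 by 3.07 (limma adjusted p = 0.0125) and Jag2 by 2.65 (limma adjusted p = 2.07e-05). Dll1 already differed without Dox, at 55.1 and 16.7 normalized counts in iGPA against 138 and 131.5 in iP+A cells. With Dox it was at 819.7 and 979.8 against 487 and 432.5, so the difference of effects holds both gaps. The Dll1 call was lost without untreated replicate 2 of iGPA (2.24, limma adjusted p = 0.0806). Dll3 differed by 2.32 and missed the threshold (limma adjusted p = 0.10), but passed with the replicate number as a block (limma adjusted p = 0.01) and with only the groups compared (0.0144). Jag1 differed by −1.11 (limma adjusted p = 0.0769), and in Dox cells it was at 637 and 826 in iGPA against 2913 and 2317 in iP+A.

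When Pou4f3 was added to Gfi1 and Atoh1 (iGPA minus iG+A), 0 of the 10 genes passed in limma in either direction (background 1.6% upward, 0.6% downward) and 1, Notch2, had an unadjusted p under 0.05 (−0.71, SE 0.17, limma adjusted p = 0.02). The ligands and Lfng differed by −0.13 to 0.99, with SE from 0.32 to 0.96. When Atoh1 was added to Gfi1 and Pou4f3 (iGPA minus iG+P), the 5 ligands and Lfng all had larger effects (background 4.24% upward, 1.66% downward). The differences were 3.48 for Dll3 (limma adjusted p = 0.019), 3.00 for Dll4 (0.000714), 2.67 for Dll1 (0.0311), 2.36 for Lfng (0.00584), 2.28 for Jag2 (0.000121) and 1.89 for Jag1 (0.00552). The call of Dll1 was lost with only the groups compared (0.057) and without 5 of the 8 libraries (least 1.84, without untreated replicate 2 of iGPA), and that of Dll3 without 5 of the 8 (least 2.95, without Dox replicate 2 of iG+P).

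Ligands and receptors were then summed per kilobase in each library. In the 14 untreated libraries the 5 ligands summed to 172 to 465 normalized counts per kilobase and the 4 receptors to 882 to 1626, a ratio of 0.194 to 0.357. With Dox the ratio was 1.67 and 1.40 in iAtoh1, 1.23 and 1.59 in iP+A, 2.71 and 2.97 in iG+A and 3.49 and 4.55 in iGPA cells. With Dll3 counted, ligand transcripts outnumbered receptor transcripts in all 8 Dox libraries with Atoh1 and in none of the untreated ones. In the lines without Atoh1 it was 1.07 and 1.40 in iG+P, 0.631 and 0.948 in iGfi1 and 0.170 and 0.266 in iPou4f3 cells. Dll3 was a large share of this, 44.4% to 65.3% of the ligand sum in Dox libraries with Atoh1 against 6.7% to 25.8% in untreated ones. Leaving it out, the ratio was 0.727 and 0.487 in iAtoh1, 0.884 and 0.677 in iP+A, 1.39 and 1.15 in iG+A and 1.70 and 1.54 in iGPA cells with Dox, so that ligands outnumbered receptors in 4 of these 8 libraries. The lowest of them lay between the Dox libraries of iG+P cells (0.493 and 0.480), and the untreated libraries had 0.148 to 0.265. Among untreated receptors Notch3 took 45.3% to 56.4% and Notch2 21.7% to 35.3%. These sums are a description without a test, and transcripts do not measure protein at the cell surface.

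**Figure D4:**
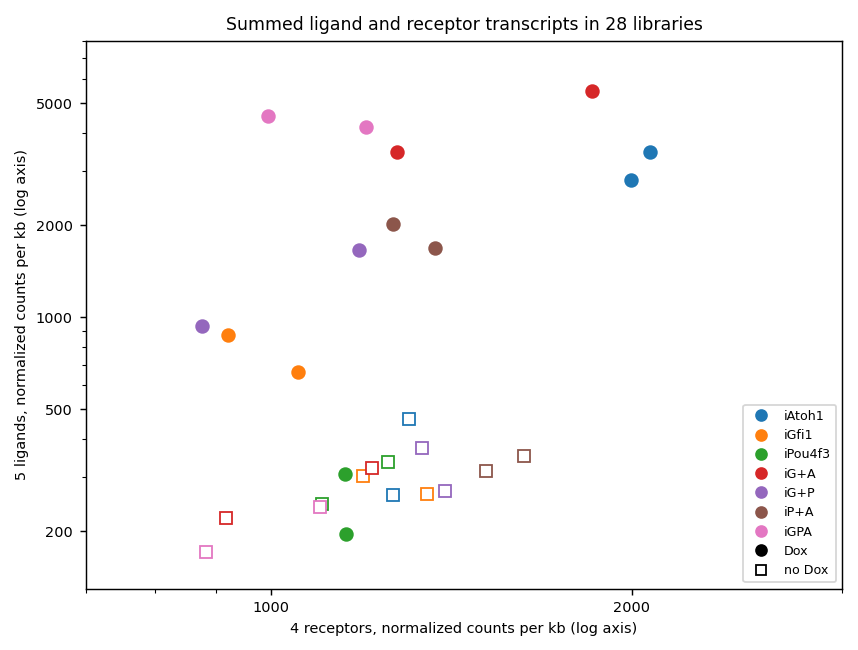
Summed normalized counts per kilobase of 5 ligands (vertical, log axis) against 4 receptors (horizontal, log axis) in 28 libraries, coloured by line, filled circles for Dox and open squares for no Dox. Receptors lie between 876 and 2073 in all libraries, while ligands run from 172 to 5496 and the Dox libraries of iPou4f3 cells sit among the untreated ones.

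Of the other genes of the pathway, 41 were listed by role and 40 tested. In iG+A cells 11 of the 40 rose and 0 fell, where 7.35% of all genes rose and 4.95% fell. In iGPA cells 10 rose and 1 fell (of all genes 8.65% and 5.31%), in iAtoh1 5 and 1 (2.89% and 2.52%), in iP+A 5 and 0 (4.7% and 2.58%) and in iG+P cells 5 and 2 (5.16% and 5.36%). In iGfi1 cells 0 rose and 1 fell (2.15% and 2.67%), and in iPou4f3 cells 0 did either (1.47% and 0.606%). Their median changes were −0.04 to 0.36, while those of all genes were −0.03 to 0.022. The 5 rises in iG+P cells were 3 with only the groups compared and 2 without Dox replicate 1. None of the 8 genes that cut receptors (Adam10, Adam17 and the γ-secretase genes), of the 2 that add the first sugars (Pofut1, Poglut1) and of the 6 of the nuclear complex (Rbpj, Maml1 to Maml3, Spen, Snw1) passed in any line. Of the 4 genes that ubiquitinate ligands, Neurl1a rose in iG+A cells (1.76) and Neurl1b in iGPA cells (1.58).

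Mfng, the fringe most like Lfng, rose in 5 lines. In iP+A cells, where Lfng missed the threshold, Mfng went from 71.2 and 117 to 1716 and 1357 normalized counts (4.05, SE 0.27, limma adjusted p = 3.84e-09). In iGPA cells it went from 118 and 140.5 to 5143 and 5626 (5.37, limma adjusted p = 5.21e-11), and it rose by 4.49 in iG+A, 3.41 in iAtoh1 and 2.51 in iG+P cells. Rfng, the remaining fringe, changed by −0.21 to 0.36. The ligands without the usual receptor-binding domain were Dlk1, Dlk2 and Dner. Dner rose by 4.89 in iGPA and 3.31 in iG+A cells. Dlk1 fell in iG+P, from 10370 and 13400 to 997 and 1333 (−3.35, limma adjusted p = 6.42e-07), in iGPA (−2.96), in iGfi1 (−2.30) and in iAtoh1 cells (−1.59, but −1.17 without untreated replicate 2 and −1.35 without Dox replicate 1, both below the threshold). Its change in iP+A cells was −1.41 (limma adjusted p = 0.00572), below the fold threshold, which it passed without untreated replicate 2 (−1.91) or Dox replicate 1 (−1.79). Dlk2 rose in iGPA, from 6.28 and 7.06 to 401 and 429.6 (5.76, limma adjusted p = 2.98e-08), in iP+A (5.17), in iAtoh1 (2.52) and in iG+A cells (2.43).

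Dtx1, a ubiquitin ligase that binds Notch, rose in 4 lines, by 2.44 in iGPA, 2.35 in iG+P, 1.75 in iG+A and 1.80 in iP+A cells. In iGfi1 and iPou4f3 cells it changed by 1.26 and 1.27, with limma adjusted p of 0.00797 and 0.0306 but below the fold threshold, and in iGfi1 it passed without untreated replicate 1 (1.54). In iAtoh1 cells it changed by 0.01. Single libraries decided it in iP+A (1.34 without untreated replicate 1) and in iG+A cells (1.33 without Dox replicate 2). Among 7 targets of the pathway, Heyl rose in 5 lines, Hes5 and Hes7 in 4, Hey1 in 3 and Nrarp in 2, and Hey2 fell in iG+P cells. Heyl, a repressor turned on by Notch, went from 10.4 and 19.1 to 1062 and 1881 normalized counts in iG+A cells (6.54, SE 0.49, limma adjusted p = 1.54e-08). Its 13.1 and 13.8 in iGPA cells became 639.9 and 876 (5.70). It rose by 4.69 in iAtoh1, 2.41 in iP+A and 1.68 in iG+P cells, the last of which was lost with a pseudocount of 5 (1.40), with only the groups compared (limma adjusted p = 0.0867) and without untreated replicate 2 (1.00) or Dox replicate 1 (1.08).

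Hes5, the usual target in cells beside new HCs, had 1.16 and 4.50 normalized counts without and 280.1 and 343 with Dox in iG+A cells (6.50, SE 0.89, limma adjusted p = 1.44e-05) and 3.49 and 0.98 against 179 and 268 in iGPA cells (6.20). In iAtoh1 cells it had 5.85 and 4.09 against 61.1 and 33.2 (2.96, limma adjusted p = 0.0217) and in iG+P cells 0 and 2.02 against 28.7 and 5.39 (2.99, limma adjusted p = 0.0137). In iP+A cells Hes5 had 0 and 5.49 against 14.5 and 9.58 (2.33, limma adjusted p = 0.063), which passed with quantile normalization (2.42) and without untreated replicate 2 (3.68). The calls in iAtoh1 and iG+P cells rest on low values and were lost without any 1 of 3 (iAtoh1) or 2 (iG+P) of their 4 libraries, at limma adjusted p of 0.0644 to 0.133 in iAtoh1 (not without Dox replicate 2) and of 0.155 and 0.196 in iG+P cells (without replicate 1 of either group). Hey1 rose by 3.09 in iG+A, 2.74 in iGPA and 1.98 in iP+A cells, while Hes1, the target with the broadest expression, changed by −0.79 to 0.75. Hes7 rose by 2.65 in iGPA, 2.05 in iAtoh1, 2.02 in iG+P and 1.89 in iG+A cells.

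**Figure D5:**
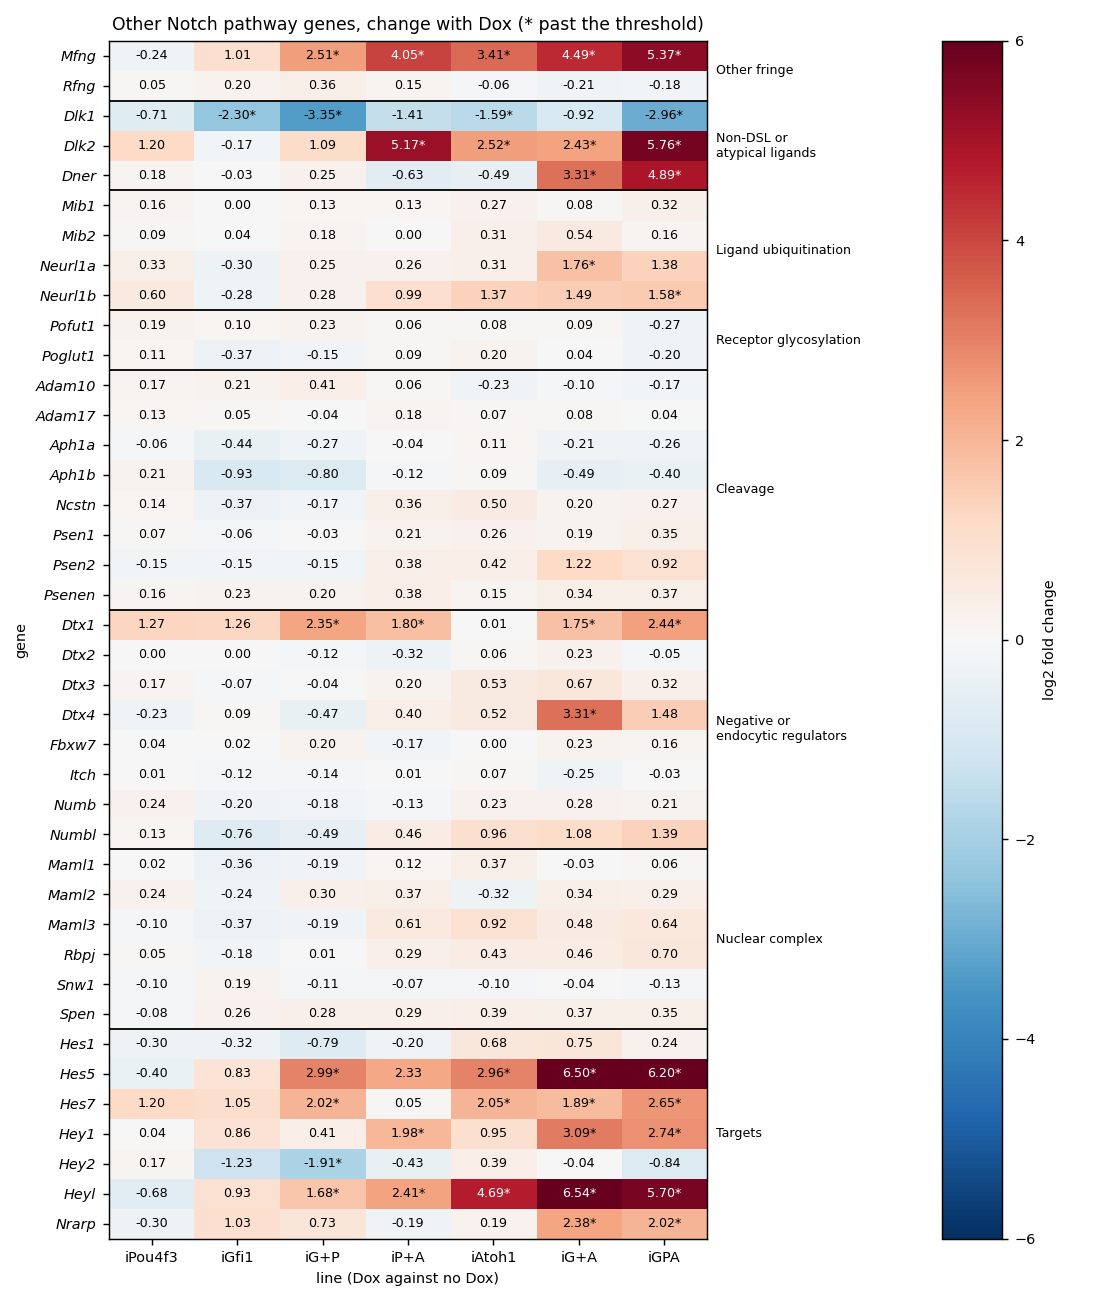
Log2 fold change with Dox of the 40 other pathway genes tested, grouped by role, in the 7 lines, with an asterisk where the threshold was passed. Asterisks gather in Mfng, Dlk1 (all falls), Dlk2, Dtx1, Hes5, Heyl and Hes7, while the cleavage, glycosylation and nuclear complex genes have none.

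Across the 14 group means of log2 values, the gene most like Dll1 was Dll3, with a Pearson r of 0.953. Next to Dll1 came Sik1 (0.952) and Htr3a (0.946). The genes most like Dll3 were Prex1 (0.984), Adssl1 (0.98) and Btbd17 (0.978), and those most like Dll4 were Mfng (0.971), Foxd2os (0.965) and Cntnap1 (0.964). Those of Lfng were Aldh1b1 (0.973), Icam5 (0.972) and the target Heyl (0.971), and those of Jag2 were Sox10 (0.982), Fitm1 and Ngfr (both 0.978). Jag1 was most like C630043F03Rik (0.946), Pitpnm3 (0.934) and Tmem215 (0.919), Notch1 like Adm (0.922) and Polm (0.909), and Notch4 like Naip2 (0.963), Calcrl (0.962) and Lama3 (0.955). Among the 10 genes themselves, Jag2 and Lfng had an r of 0.96 and Jag1 and Lfng one of 0.55, and Notch2 had −0.35 to −0.03 with every ligand. These are descriptions over 14 points that share libraries and a Dox contrast, and carry no test.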

How the data were processed

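RNA of 28 EB samples (mRNA libraries, Illumina HiSeq) had been measured in 14 groups of 2. Per the paper's methods the authors trimmed reads with cutadapt, quantified transcripts of UCSC knownGene (mm9) by Kallisto, and used tximport for gene sums and DESeq2 for normalization. Tool versions are not given in the sources used here. The authors deposited log2(normalized count + 1) for 19421 Entrez genes, and raw read depth is unknown. Symbols came from a RefSeq gene list (19314 genes named, 107 not), and positions from GENCODE on NCBIM37, the assembly of mm9.

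Values were tested as log2 values with limma 3.58.1 (R 4.3.3), with a mean-variance trend and 14 groups in one fit, on the 16837 genes with 10 or more normalized counts in 2 or more libraries, with Benjamini-Hochberg adjustment within each comparison. The threshold was an adjusted p under 0.05 and a log2 fold change of 1.5 or more. The share of values up to 20 that were whole multiples of 1 step per library, with a tolerance of 0.05, was 72.4% to 79.6%, so whole reads were not recovered and no count test was run. The scripts were tested on simulated data.

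The members and gene lists were chosen with earlier results of these data known. Named genes were the 10 members, the 3 genes most correlated with each member that rose (1 of those of Notch1 is not reported here), and other pathway genes past the threshold in 3 or more lines, at most 3 per role. Naming other pathway or marker genes was decided after their values were seen. Lists of endothelial, presomitic and early mesoderm, mesenchyme, neural progenitor, neuron, HC and pluripotency markers were counted. Aph1c was not matched.

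Replicates are described as different clones, so p-values measure the spread between these samples. Deviations of samples with the same number from their group means correlated at 0.10 to 0.25 within the 7 lines, and whether equal numbers mean the same clone with and without Dox was not established. The alternatives were a pseudocount of 5, no filter, quantile normalization, the replicate number as a block, only the groups compared, and each library left out. Refitting the other pathway genes in these settings was chosen after seeing the data. Promoter windows were searched by exact letters with Python 3.11.15.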

Additional observations from a re-analysis of the deposited data

Results flagged for a closer look

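Dox effects of 2 lines that differ by 1 factor were compared for the 10 genes in 5 differences, and 13 of these 50 values passed the threshold of limma for the difference itself. For iG+A minus iAtoh1 they were Jag2 (1.67) and Notch4 (1.92). For iP+A minus iAtoh1 they were Lfng (−3.44) and Notch1 (−1.84). For iGPA minus iP+A they were Lfng (3.91), Dll1 (3.07) and Jag2 (2.65). For iGPA minus iG+P they were Dll3 (3.48), Dll4 (3.00), Dll1 (2.67), Lfng (2.36), Jag2 (2.28) and Jag1 (1.89). The differences share libraries with one another. For iGPA minus iG+A 0 of 10 passed in limma, with 1 at an unadjusted p under 0.05.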

How the results depend on the processing

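No value of the 10 genes changed direction while called. Of their 28 calls of a Dox effect, 0 were lost with a pseudocount of 5, without the filter, with only the groups compared or with the replicate block, and 1 with quantile normalization. The replicate block changed 1 call among the differences, that of Dll3 for iGPA minus iP+A (2.32, limma adjusted p = 0.01). Leaving out 1 library ended 7 of the 28 calls under at least 1 choice of library, and 6 of the 24 calls of differences. It also gave calls to Jag1 in iAtoh1 and iGPA cells, Notch1 in iG+A, Jag2 in iG+P and Notch4 in iGPA cells, and to Jag1 for iP+A minus iAtoh1 and Notch1 for iGPA minus iG+P. The members that rose in iGfi1 cells were then 1 to 3 in number (1 without untreated replicate 2). For iG+A minus iAtoh1 the members with a larger effect were 0 to 2 (0 without Dox replicate 2 of iAtoh1), and 1 with only the groups compared. For iP+A minus iAtoh1 they were 0 to 1 (1 without untreated replicate 2 of iAtoh1). Over all genes, calls in iGfi1 cells ran from 514 (without Dox replicate 1) to 880, against 811 with all libraries. In iPou4f3 cells they ran from 189 (without untreated replicate 1) to 266, against 350, with 224 without Dox replicate 2. With 1 library left out, the lone sample of its group was assumed to vary like the other groups. Low values such as those of Hes5 and Dlk2 limit what could be detected.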
